A study of Mus musculus with 12 samples.

Results

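The integrated stress response was followed through 10 genes, chosen by name for their role in it. They encode the transcription factors Atf4, Atf5 and Ddit3, the pseudokinase Trib3, the secreted mitokines Fgf21 and Gdf15, and the enzymes Asns, Mthfd2, Psat1 and Phgdh. Of these, 9 were measured by a probe set that carries their symbol alone, out of 19938 genes measured in that way, and each of the 9 had 1 such probe set. Gdf15 was not analysed here. A second probe set for Phgdh also carries the symbol Gm6756 and was left out, so that the Phgdh signal is uncertain where the other transcript shares its sequence.

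Muscle RNA came from male mice, labelled C57Bl6, aged 10 to 12 weeks. WT mice were compared with mice lacking Cox6a2 (KO), which encodes the heart and skeletal muscle form of a subunit of cytochrome c oxidase, the last complex of the respiratory chain. The WT controls were matched for age and sex and came from a commercial breeder. There were 4 groups of 3 arrays: WT diaphragm, KO diaphragm, WT gastrocnemius and KO gastrocnemius. The labels call the 3 samples of a group biological replicates and say no more about the animals, and p-values measure the spread between these samples. Signals are given on the log2 scale of the RMA method, and a gene was called when limma gave a Benjamini-Hochberg adjusted p under 0.05 over all genes.

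Several kinases sense amino acid shortage, unfolded proteins in the endoplasmic reticulum, viral RNA or mitochondrial failure, and all of them phosphorylate the translation factor eIF2. General translation then falls, while the mRNA of Atf4 is translated better, so that the ATF4 protein can rise without more of its mRNA. ATF4 switches on genes of amino acid supply, of serine and folate metabolism and of cell death. In muscle with defective mitochondria this program is known to release FGF21 and GDF15 into the blood, which is why they are called mitokines.

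Cox6a2 itself was at 11.65 to 12.06 on the 6 arrays labelled WT and at 6.71 to 7.18 on the 6 arrays labelled KO. The arrays labelled WT diaphragm, however, carried the hindlimb position gene Hoxc10 at 8.62 to 8.75, against 3.82 to 4.53 in KO diaphragm, and the mesothelial gene Upk3b at 5.27 to 5.51, against 8.82 to 9.80. The gastrocnemius arrays had Hoxc10 at 8.36 to 8.63 and Upk3b at 5.0 to 5.56. The Pearson correlation over all genes was 0.989 to 0.992 between arrays labelled WT diaphragm and WT gastrocnemius and 0.963 to 0.975 between arrays labelled WT and KO diaphragm. Each difference given below for diaphragm is therefore a difference from the arrays labelled WT diaphragm, and genotype and muscle cannot be told apart in it. The differences of KO diaphragm from KO gastrocnemius use none of these arrays, although their SE and p-values share a spread estimated from all arrays.

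In gastrocnemius, none of the 9 genes was called between KO and WT mice by limma. Over all genes 0.406% were called higher and 0.186% lower, so that the absence of calls among 9 genes is near the background. At an unadjusted p under 0.05, 4 of the 9 differed, against 16.4% of all genes, with Atf5 higher in KO mice and Atf4, Trib3 and Phgdh lower. The arrays of the WT and KO groups did not overlap for 5 of the 9, against 23.2% of all genes. The median difference of the 9 genes was -0.14 on the log2 scale and that of all genes -0.01.

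Atf4, the central transcription factor of the response, had log2 signals of 9.08, 9.25 and 8.98 in WT gastrocnemius and 8.94, 8.73 and 8.86 in KO gastrocnemius. All KO arrays lay below all WT arrays, and the difference was -0.26 (95% interval -0.51 to -0.01, adjusted p = 0.278). Atf5, a related factor known for its role in the mitochondrial stress response, was at 8.21, 7.89 and 7.98 in WT and at 8.33, 8.28 and 8.52 in KO gastrocnemius. All KO arrays lay above all WT arrays here, with a difference of 0.35 (95% interval 0.13 to 0.57, adjusted p = 0.129). Phgdh, the first enzyme of serine synthesis, was at 6.74, 6.28 and 6.41 in WT and at 6.04, 5.80 and 6.25 in KO gastrocnemius, and its difference of -0.45 had an adjusted p of 0.226. Fgf21, a hormone that acts on fat and brain, was at 5.71, 5.58 and 5.53 in WT and at 5.40, 5.63 and 5.40 in KO gastrocnemius. These arrays overlapped, and the 95% interval of the Fgf21 difference ran from -0.33 to 0.06. Ddit3, Asns and Psat1 overlapped likewise. Mthfd2 was at 6.50, 6.37 and 6.27 in WT and at 6.67, 6.58 and 6.55 in KO gastrocnemius. Its KO arrays were all higher, with a difference of 0.22 (95% interval -0.02 to 0.45, adjusted p = 0.340). Trib3 was at 6.38, 6.15 and 6.17 in WT and at 5.85, 6.02 and 6.10 in KO gastrocnemius. Its KO arrays were all lower, with a difference of -0.25 (95% interval -0.47 to -0.02, adjusted p = 0.273). WT gastrocnemius replicate 1 was the highest array of its group for each of the 9 genes except Atf4. It also had the highest mean of 7 white adipocyte markers, 7.48 against 6.91 and 6.90, with 6.50 to 6.83 in KO gastrocnemius. All 7 of these markers and all 11 macrophage markers were lower in KO gastrocnemius without being called (medians -0.43 and -0.32), and their part in the values of the 9 genes was not tested.

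**Figure D1:**
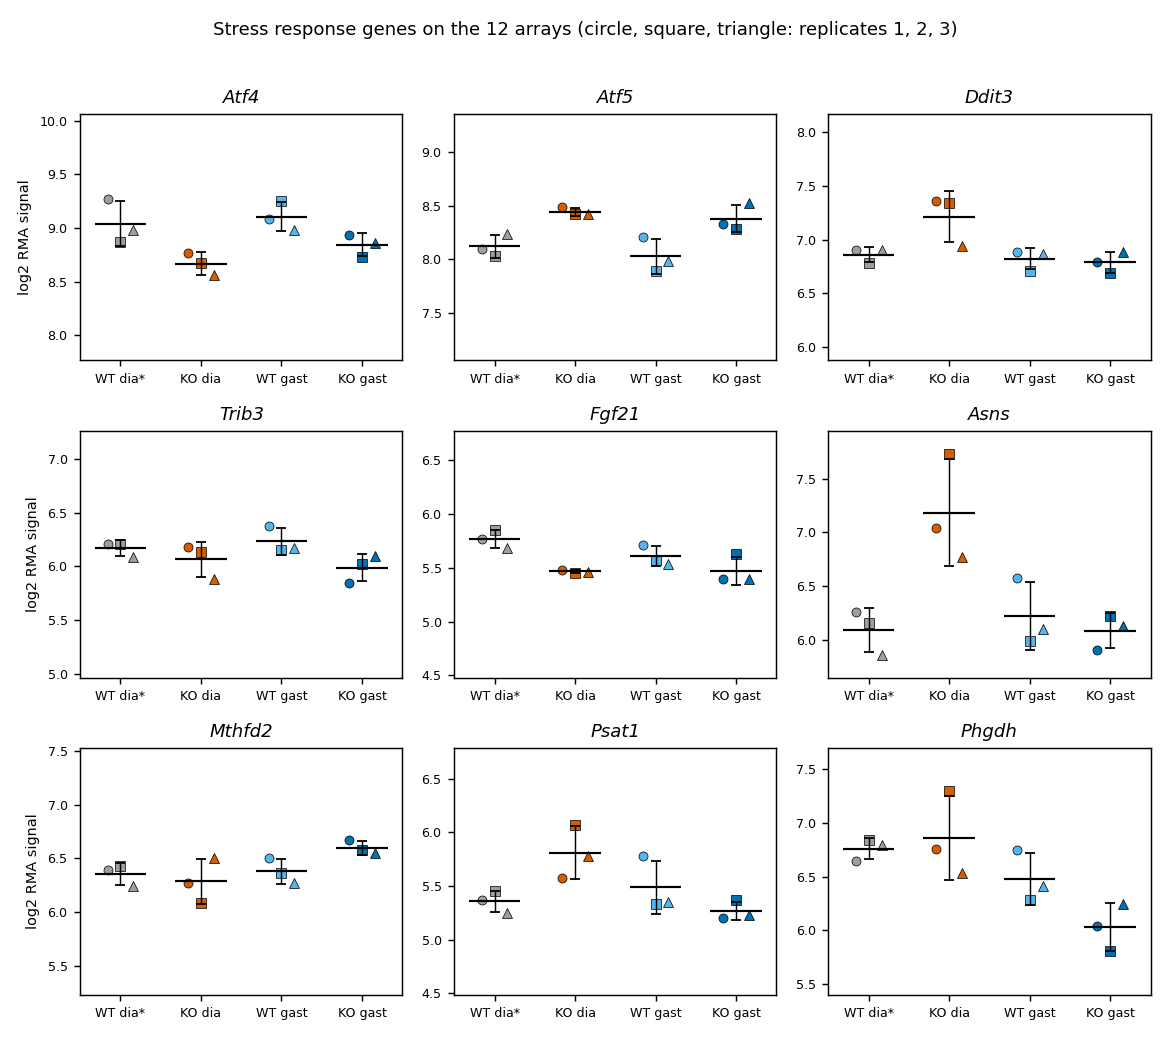
Log2 RMA signal (vertical axes, each spanning the same 2.3 log2 units) of the 9 measured genes in the 4 groups (horizontal axes; dia, diaphragm; gast, gastrocnemius). Circles, squares and triangles are replicates 1, 2 and 3, horizontal lines are means, bars are SD (n = 3), and the asterisk marks the arrays labelled WT diaphragm. Asns is higher on the 3 KO diaphragm arrays (6.77 to 7.73) than on the other 9 (5.86 to 6.58), while Atf4 is lower in KO diaphragm than on either group of WT arrays.

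Between KO diaphragm and the WT diaphragm label, 6 of the 9 genes were called, with Asns, Psat1, Ddit3 and Atf5 higher and Atf4 and Fgf21 lower. Over all genes 16.3% were called higher and 11.2% lower, and the groups did not overlap for 6 of the 9 genes, against 43.1% of all genes. The background is thus high in this comparison, with a median difference of 0.10 for the 9 genes and -0.04 for all genes. Its balance also moved with the scaling of the arrays. As deposited, 3258 genes were called higher and 2238 lower, whereas 2667 and 3836 were called after median centring and 2812 and 2863 after quantile normalization.

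Asns, which encodes the asparagine synthetase and is a classical ATF4 target, had the largest difference of the 9. Its log2 signals were 7.05, 7.73 and 6.77 in KO diaphragm and 6.26, 6.15 and 5.86 on the arrays labelled WT diaphragm. The gastrocnemius arrays were at 6.58, 5.99 and 6.10 in WT mice and at 5.90, 6.22 and 6.13 in KO mice. All KO diaphragm arrays lay above the other 9 arrays, and the other 3 groups overlapped with means of 6.09 to 6.22. The difference from the arrays labelled WT diaphragm was 1.09 (SE 0.21, 2.13-fold, adjusted p = 0.0013), and Asns was called under all 21 alternative settings, with differences of 0.82 to 1.30.

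Psat1, the second enzyme of serine synthesis, was at 5.58, 6.07 and 5.79 in KO diaphragm and at 5.37, 5.45 and 5.25 on the arrays labelled WT diaphragm. The groups did not overlap, although replicate 1 of WT gastrocnemius, at 5.78, lay within the KO diaphragm range. The difference was 0.45 (SE 0.14, 1.37-fold, adjusted p = 0.023). It was no longer called without replicate 1 (0.46) or 3 (0.40) of the arrays labelled WT diaphragm or without replicate 2 of KO diaphragm (0.32). Phgdh, which acts upstream of Psat1 in the same pathway, was at 6.75, 7.29 and 6.53 in KO diaphragm and at 6.65, 6.84 and 6.79 on the arrays labelled WT diaphragm. These arrays overlapped, with a difference of 0.10 (95% interval -0.27 to 0.48) that turned negative after quantile normalization (-0.02) and without replicate 2 of KO diaphragm (-0.12). Mthfd2, a mitochondrial enzyme of folate metabolism that is often raised in mitochondrial disease of muscle, was at 6.27, 6.08 and 6.50 in KO diaphragm and at 6.39, 6.43 and 6.24 on the arrays labelled WT diaphragm. Its groups overlapped as well, with a difference of -0.07 (95% interval -0.30 to 0.17) that was 0.03 without replicate 2 of KO diaphragm.

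The transcription factors did not move together. Atf4 was at 8.77, 8.67 and 8.56 in KO diaphragm and at 9.27, 8.87 and 8.98 on the arrays labelled WT diaphragm, so that all KO arrays were lower (-0.37, SE 0.12, adjusted p = 0.026). Atf5 was at 8.48, 8.42 and 8.42 in KO diaphragm and at 8.09, 8.03 and 8.23 on the arrays labelled WT diaphragm, so that all KO arrays were higher (0.32, SE 0.10, adjusted p = 0.030). Ddit3, which encodes the death-promoting factor CHOP, was at 7.36, 7.35 and 6.94 in KO diaphragm and at 6.90, 6.78 and 6.90 on the arrays labelled WT diaphragm. Its groups nearly touched, at 6.94 and 6.90, and the difference was 0.35 (SE 0.11, adjusted p = 0.031). These calls depended on single arrays and, for Atf5 and Ddit3, on the scaling. The Atf4 call was lost without replicate 1 of the arrays labelled WT diaphragm (-0.26) and without replicate 2 (-0.37) or 3 (-0.32) of KO diaphragm. Atf5 and Ddit3 were each lost without any of 5 of the 6 diaphragm arrays, the exceptions being replicate 3 labelled WT for Atf5 and replicate 3 of KO for Ddit3, at differences of 0.28 to 0.33 and 0.28 to 0.38. After median centring they were at 0.25 and 0.28, and after quantile normalization at 0.27 and 0.23, neither of them called.

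Fgf21 was at 5.48, 5.45 and 5.47 in KO diaphragm and at 5.77, 5.86 and 5.69 on the arrays labelled WT diaphragm. All KO diaphragm arrays were lower (-0.30, SE 0.09, adjusted p = 0.023). The call was lost without replicate 1 (-0.31) or 2 (-0.26) of the arrays labelled WT diaphragm and without replicate 2 (-0.30) or 3 (-0.30) of KO diaphragm. Signals of Fgf21 and of Psat1 were low. Of 1027 olfactory receptor genes, which are not known to act in muscle, 95% had a mean signal of at most 5.21, and Psat1 was at 5.21 to 5.37 in KO gastrocnemius. Whether either gene exceeded the background of its probes was not tested. Trib3, a pseudokinase that ATF4 and CHOP induce and that damps both, was at 6.18, 6.14 and 5.88 in KO diaphragm and at 6.21, 6.21 and 6.08 on the arrays labelled WT diaphragm. The groups overlapped, with a difference of -0.10 (95% interval -0.33 to 0.13).

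The effect of the KO label differed between the muscle labels for 2 of the 9 genes by the interaction term of the same model, where 8.76% of all genes had a positive and 6.07% a negative call. Asns had an interaction of 1.23 (SE 0.30, adjusted p = 0.012), being higher by 1.09 in diaphragm by label and at -0.14 in gastrocnemius. It was called under all 20 alternatives. Psat1 had an interaction of 0.67 (SE 0.19, adjusted p = 0.030), with 0.45 in diaphragm by label and -0.22 in gastrocnemius. This call was lost without replicate 1 (0.68) or 3 (0.62) of the arrays labelled WT diaphragm, replicate 1 of WT gastrocnemius (0.53), replicate 2 of KO diaphragm (0.54), or replicate 1 (0.64) or 3 (0.65) of KO gastrocnemius. For Ddit3 the interaction of 0.39 was not called (adjusted p = 0.127), but it was called without replicate 3 of KO diaphragm (0.53). Atf5 was at 0.32 in diaphragm by label and at 0.35 in gastrocnemius, with an interaction of -0.03 (95% interval -0.34 to 0.29). Genotype and muscle cannot be told apart in the first of these values.

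KO diaphragm and KO gastrocnemius were then compared, which sets muscles rather than genotypes against each other. The arrays labelled WT diaphragm give no values to these differences and enter only the shared estimate of the spread. Of the 9 genes, 4 were called higher in KO diaphragm, namely Asns, Phgdh, Psat1 and Ddit3, and Mthfd2 was called lower, where 17.7% of all genes were called higher and 11.2% lower. The groups did not overlap for 5 of the 9 genes, against 44.8% of all genes, and the median differences were 0.08 for the 9 genes and 0.02 for all genes. Asns was higher by 1.10 (SE 0.21, adjusted p = 0.0012) and Phgdh by 0.83 (SE 0.18, 1.78-fold, adjusted p = 0.0024), both called under all 22 alternatives. Psat1 was higher by 0.54 (SE 0.14, adjusted p = 0.0077). Mthfd2 was lower in KO diaphragm, at 6.27, 6.08 and 6.50 against 6.67, 6.58 and 6.55 (-0.31, SE 0.11, adjusted p = 0.045). The Mthfd2 call was lost under 11 of the 22 alternatives, among them the fit that leaves out the WT diaphragm label (adjusted p = 0.058) and leaving out replicate 1 labelled WT diaphragm (-0.31), replicate 2 of WT gastrocnemius (-0.31), replicate 1 (-0.31) or 2 (-0.21) of KO diaphragm or replicate 1 (-0.28), 2 (-0.32) or 3 (-0.34) of KO gastrocnemius. Ddit3 was higher by 0.43 (SE 0.11, adjusted p = 0.011), but not called after median centring (0.30) or quantile normalization (0.30), nor without replicate 1 (0.35) or 2 (0.36) of KO diaphragm. Atf4, Atf5, Trib3 and Fgf21 were not called, at -0.18, 0.06, 0.08 and -0.01.

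**Figure D2:**
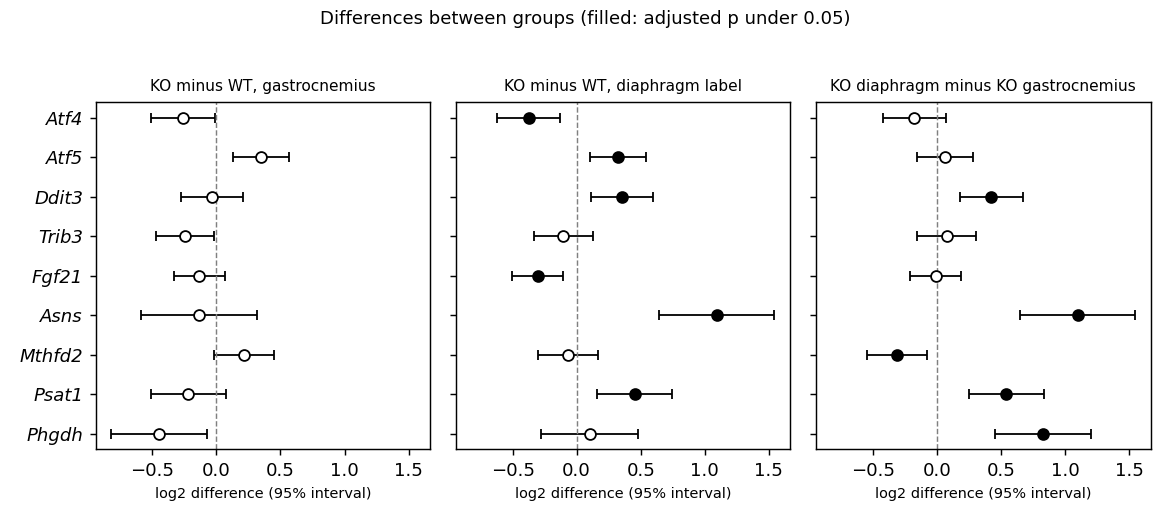
Log2 difference between groups (horizontal axes) for each of the 9 genes (vertical axis) in 3 comparisons, with the 95% interval from limma as bars; filled points have an adjusted p under 0.05. In gastrocnemius no point is filled, whereas Asns stands at 1.09 against the arrays labelled WT diaphragm and at 1.10 against KO gastrocnemius, which share the KO diaphragm arrays.

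Between the arrays labelled WT diaphragm and WT gastrocnemius none of the 9 genes was called by limma and none had an unadjusted p under 0.05, where 0.296% of all genes were called higher, 0.166% lower and 12.9% had such a p. No gene of the 9 was without overlap, against 16.8% of all genes. Differences ran from -0.13 for Asns to 0.28 for Phgdh.

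The wider pathway was read from lists of its genes. Their counts stand against the shares of all genes called higher and lower by limma. These were 0.406% and 0.186% in gastrocnemius, 16.3% and 11.2% against the WT diaphragm label, and 17.7% and 11.2% between the KO muscles. At an unadjusted p under 0.05, 16.4% of all genes differed in gastrocnemius. Upstream of ATF4, the list of eIF2 kinases, eIF2 subunits, the eIF2B exchange factor and the eIF2 phosphatases had 16 measured genes. None was called in gastrocnemius, where 1 had an unadjusted p under 0.05, namely Oma1, the mitochondrial protease that relays stress to eIF2 (0.46, adjusted p = 0.113), and the median difference was 0.06. Against the arrays labelled WT diaphragm, 3 were higher and 6 lower in KO diaphragm (median -0.14). Oma1 was among the higher ones (0.61, adjusted p = 0.0023). Eif2ak2, the kinase activated by double-stranded RNA, was at 5.81, 6.26 and 7.35 in KO diaphragm and at 5.31, 5.26 and 5.05 on the arrays labelled WT diaphragm, a difference of 1.26 (SE 0.28, adjusted p = 0.0035). Its signals on the arrays labelled WT diaphragm were near the 5.21 given above for olfactory receptor genes, and signal over background was not tested. The Eif2ak2 difference was 0.82 without replicate 3 of KO diaphragm, and 0.60 and not called without replicates 2 and 3 (adjusted p = 0.082). Replicate 3 of KO diaphragm stood highest for this kinase, whereas replicate 2 stood highest for Asns, Psat1 and Phgdh. Ppp1r15a, the inducible phosphatase subunit that ends the response, was lower (-0.82, SE 0.17, adjusted p = 0.0027), and so was the eIF2 subunit gene Eif2s2 (-0.69, SE 0.14, adjusted p = 0.0021). Against KO gastrocnemius, 3 genes of this list were higher and 4 lower in KO diaphragm, with Eif2s2 at -1.06, Eif2b2, a subunit of the exchange factor, at -0.70, and Eif2ak2 at 0.87. Oma1 was also called higher there (0.42, adjusted p = 0.021). The Eif2ak2 call in that comparison held under 11 of 21 alternatives. It was lost without replicate 3 of KO diaphragm (0.43), without any single array of KO gastrocnemius (0.82 to 0.94) and after median centring (0.74) or quantile normalization (0.71). A trended, robust eBayes, fitting only the groups compared and leaving out the arrays labelled WT diaphragm also lost it.

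Downstream, 29 other ATF4 target genes were measured, and they went in different directions. In gastrocnemius 1 was called, against the background given above, with a median of -0.09. This was Ddit4, an inhibitor of mTORC1 that glucocorticoids and hypoxia also induce, at 8.19, 9.26 and 9.09 in KO and 6.93, 7.82 and 6.86 in WT gastrocnemius. The KO arrays were all higher (1.64, SE 0.27, adjusted p = 0.018). The call was lost without replicate 1 (1.51) or 3 (1.47) of WT gastrocnemius and without replicate 2 (1.44) or 3 (1.52) of KO gastrocnemius. It was also lost with a trended, robust eBayes (adjusted p = 0.060) and when only the groups compared were fitted (adjusted p = 0.055). Against the arrays labelled WT diaphragm, 3 targets were higher and 9 lower in KO diaphragm, with a median of -0.16. Without KO diaphragm replicates 2 and 3, on which plasma cell transcripts were high, 1 was higher and 3 were lower, where 1537 and 875 of the 19938 genes were called. Against KO gastrocnemius 6 were higher and 6 lower in KO diaphragm (median -0.08), and 2 and 3 without those replicates, where 1724 and 1083 of all genes were called.

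Gpt2, the mitochondrial alanine transaminase, had the largest difference of these targets. It was at 8.55, 8.27 and 8.28 in KO diaphragm, at 10.96, 10.65 and 10.65 on the arrays labelled WT diaphragm, at 9.93, 10.52 and 10.08 in WT gastrocnemius and at 10.42, 10.64 and 10.60 in KO gastrocnemius. The KO diaphragm arrays lay more than 1 log2 unit below the other 9, with -2.39 (SE 0.14, adjusted p = 4.5e-08) against the arrays labelled WT diaphragm and -2.19 against KO gastrocnemius. Chac1, a glutathione-degrading enzyme and a sensitive ATF4 target, was at 6.76, 6.34 and 7.31 in KO diaphragm, at 8.44, 8.37 and 8.29 on the arrays labelled WT diaphragm, at 8.56, 9.39 and 9.12 in WT gastrocnemius and at 8.84, 8.88 and 8.80 in KO gastrocnemius. It was also lowest on all 3 KO diaphragm arrays, with -1.56 (SE 0.21, adjusted p = 8.3e-05) against the label and -2.04 against KO gastrocnemius. Nupr1, a chromatin protein induced by stress, went the other way, at 7.23, 7.92 and 7.35 in KO diaphragm and 6.95, 6.60 and 6.69 on the arrays labelled WT diaphragm (0.75, SE 0.15, adjusted p = 0.0020), but was not called without KO diaphragm replicates 2 and 3 (0.49, adjusted p = 0.066). Asns and Chac1, both known to be induced by ATF4, differed in opposite directions on the same arrays, with interactions of 1.23 and -1.38.

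A motif shared by such targets was looked for in the 300 bases from 250 before to 50 after the start of each gene (RefSeq, GRCm38.p6). The motif TGATGNAA, bound by ATF4 with a C/EBP partner, was searched on both strands. It was found in 3 of the 10 genes, Asns, Trib3 and Fgf21, in 11 of the 22 other targets with a promoter in the table, Chac1 among them, and in 4.51% of all 27025 genes with a window. The sequences around it are shown because these 4 genes hold the same motif and were higher, not called, lower and lower, in this order, in KO diaphragm against the arrays labelled WT diaphragm. They are written 5′ to 3′ on the strand of the gene, and capitals mark the motif or, for Trib3, Fgf21 and Chac1, its reverse complement.
Asns, chr6:7693185-7693272, minus strand: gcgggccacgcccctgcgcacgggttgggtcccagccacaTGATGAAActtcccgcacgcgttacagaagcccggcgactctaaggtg
Trib3, chr2:152344031-152344086, minus strand: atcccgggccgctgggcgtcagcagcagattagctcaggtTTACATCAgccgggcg
Fgf21, chr7:45615582-45615669, minus strand: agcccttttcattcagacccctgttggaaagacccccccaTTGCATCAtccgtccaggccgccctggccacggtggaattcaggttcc
Chac1, chr2:119351009-119351096, plus strand: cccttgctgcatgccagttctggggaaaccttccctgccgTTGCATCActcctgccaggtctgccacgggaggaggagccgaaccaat
A match in a window is a description of its letters, and binding of ATF4 was not measured. Between the motif and the start of the gene lie 15 bases in Asns, 131 in Fgf21 and 185 in Chac1, and in Trib3 it begins at base 15 of the annotated transcript.

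**Figure D3:**
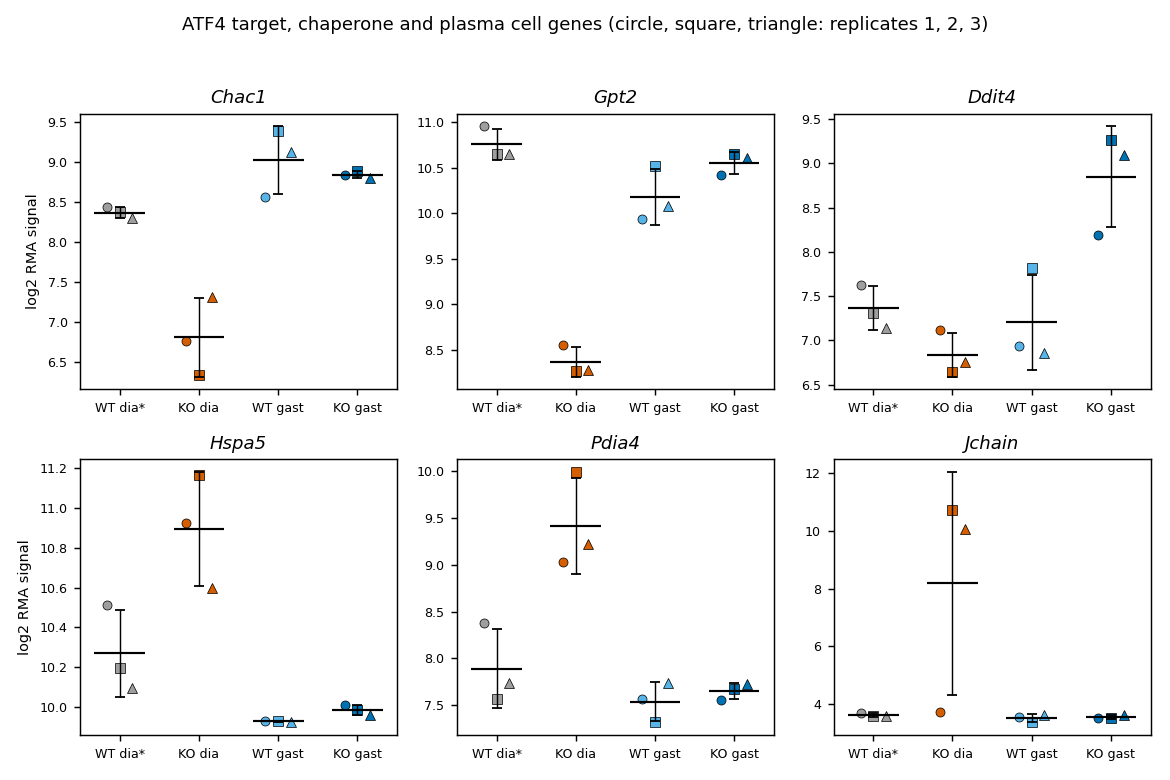
Log2 RMA signal (vertical axes, not to a common range) of 3 ATF4 target genes (Chac1, Gpt2, Ddit4), 2 endoplasmic reticulum chaperone genes (Hspa5, Pdia4) and the plasma cell gene Jchain in the 4 groups (horizontal axes). Circles, squares and triangles are replicates 1, 2 and 3, lines are means, bars are SD (n = 3), and the asterisk marks the arrays labelled WT diaphragm; Gpt2 and Chac1 are lowest in KO diaphragm, Hspa5 and Pdia4 highest, and Jchain is high on KO diaphragm replicates 2 and 3 (10.73 and 10.07) and at 3.73 on replicate 1.

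Serine and one-carbon metabolism beyond the 3 enzymes above was represented by 12 measured genes. In gastrocnemius none was called and 3 had an unadjusted p under 0.05. Among them Psph, the last enzyme of serine synthesis, was at 6.89, 6.64 and 7.17 in KO and 6.40, 6.46 and 6.63 in WT gastrocnemius (0.40, adjusted p = 0.140). In KO diaphragm 2 were higher than on the arrays labelled WT diaphragm, the folate enzyme Aldh1l1 (0.76, SE 0.09, adjusted p = 3.8e-05) and the thymidylate synthase gene Tyms (0.45, SE 0.13, adjusted p = 0.018). Over all genes 16.3% were called higher and 11.2% lower there, so that 2 of 12 is near the background. The Tyms call was lost without replicate 1 (0.36) or 3 (0.43) of KO diaphragm, and its signals on the arrays labelled WT diaphragm were below the 5.21 given above. Between the KO muscles, 3 were higher and 3 lower in diaphragm, where 17.7% and 11.2% of all genes were. Aldh1l1 was at 0.72 and the mitochondrial Aldh1l2 at -0.63, and Psph, at -0.67, went against Phgdh and Psat1 of the same pathway.

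The unfolded protein response of the endoplasmic reticulum shares the kinase PERK and the factor CHOP with the integrated stress response. Of its 15 genes none was called in gastrocnemius (1 at an unadjusted p under 0.05, median -0.04). Against the WT diaphragm label 10 were higher in KO diaphragm and none lower (median 0.63), where 16.3% and 11.2% of all genes were. Against KO gastrocnemius 14 were higher (median 0.91), where 17.7% of all genes were. Pdia4, a protein disulfide isomerase, was at 9.03, 10.00 and 9.22 in KO diaphragm and at 8.37, 7.56 and 7.74 on the arrays labelled WT diaphragm (1.53, SE 0.23, adjusted p = 1.8e-04). Edem1, which takes misfolded glycoproteins to degradation, was higher by 1.46 (SE 0.18, adjusted p = 3.3e-05) and Creld2, a secretory chaperone, by 1.39 (SE 0.24, adjusted p = 5.9e-04). Against KO gastrocnemius Hsp90b1, the endoplasmic reticulum form of HSP90, was higher by 1.39.

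These genes are also abundant in antibody-secreting cells, and markers of such cells were higher in KO diaphragm too. Of 7 plasma cell genes 5 were called higher in KO diaphragm against the WT diaphragm label (16.3% of all genes). Against KO gastrocnemius 7 were higher (17.7% of all genes), and none was called in gastrocnemius (0 at an unadjusted p under 0.05). Jchain, which joins IgA and IgM molecules, was at 3.73, 10.73 and 10.07 in KO diaphragm and at 3.36 to 3.70 on the other 9 arrays. The mean of the 7 genes was 5.50, 7.62 and 7.08 in KO diaphragm and 5.13 to 5.37 elsewhere. That of the 15 genes of the endoplasmic reticulum list was 8.77, 9.27 and 8.68 in KO diaphragm and 8.0 to 8.37 elsewhere. The plasma cell mean was lowest on replicate 1 and the endoplasmic reticulum mean on replicate 3 of KO diaphragm. Replicate 2 was highest in both lists and also for Asns, Psat1 and Phgdh. It was highest as well for the white adipocyte (7.75, 8.70 and 7.16), mesothelial (7.44, 8.22 and 7.83), macrophage (8.15, 8.34 and 7.78) and B cell markers (5.42, 6.19 and 5.95) of KO diaphragm. The adipocyte and macrophage means had the order of replicates seen for Asns, Phgdh and the endoplasmic reticulum list. On replicate 1 Jchain was at 3.73, but Mzb1, another plasma cell gene, was at 6.46 against at most 6.08 on the other 9 arrays, so that this array also carried more of some of these transcripts. Asns was at 7.05 on it, above the other 9 arrays, and Psat1 at 5.58, within their range. With replicates 2 and 3 of KO diaphragm left out, Asns was called against the arrays labelled WT diaphragm (0.95, adjusted p = 0.012) and against KO gastrocnemius (0.96, adjusted p = 0.010), as was Phgdh against KO gastrocnemius (0.72, adjusted p = 0.024). In that fit, in which the remaining array is assumed to vary like those of the other groups, Psat1 was not called (0.22 and 0.31). The part of plasma cells, B cells, fat cells and other cells in these values was not tested.

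**Figure D4:**
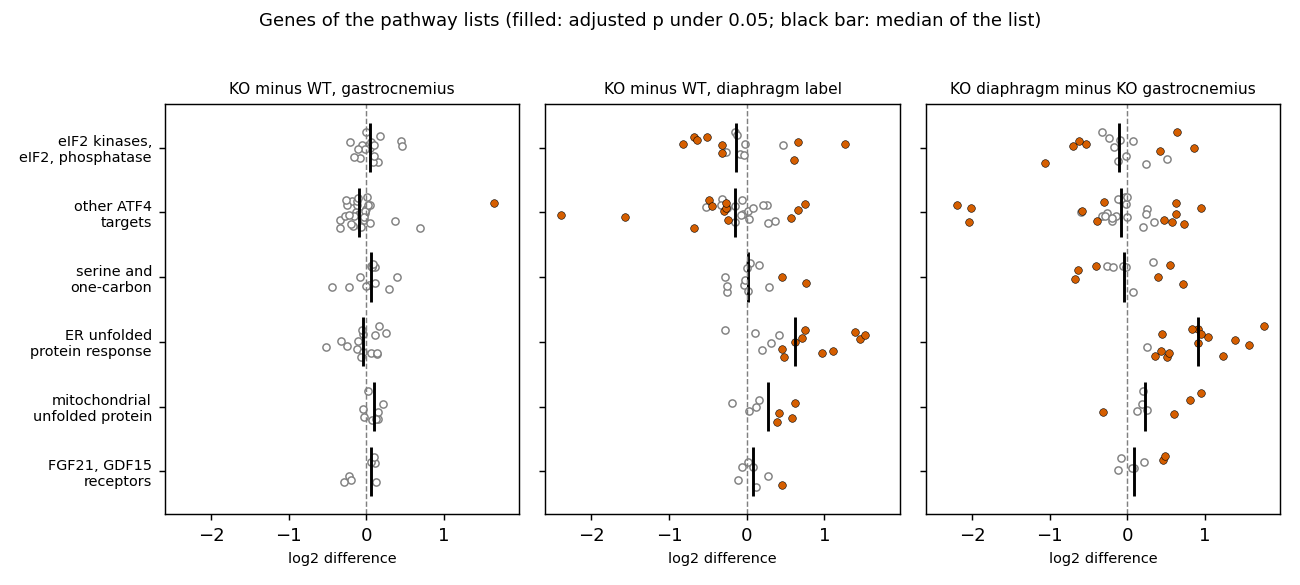
Log2 difference (horizontal axes) of each gene in 6 pathway lists (vertical axis, points spread vertically for legibility) in 3 comparisons; filled points have an adjusted p under 0.05 and black bars are the medians of the lists. The endoplasmic reticulum list lies to the right in both comparisons of KO diaphragm (medians 0.63 and 0.91) and around 0 in gastrocnemius, while ATF4 targets lie on both sides.

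Of 8 genes of the mitochondrial unfolded protein response none was called in gastrocnemius, and none had an unadjusted p under 0.05 there (median 0.10). In KO diaphragm 4 were higher than on the arrays labelled WT diaphragm (median 0.27), against 16.3% of all genes. Among the 4 were the mitochondrial chaperones Hspe1 (0.62) and Hspd1 (0.59) and the protease subunit Clpp (0.42). Between the KO muscles 3 were higher and 1 lower in diaphragm (17.7% and 11.2% of all genes), with Hspe1 at 0.94, Hspd1 at 0.80 and Hspa9 at 0.60. Of 7 receptor genes for FGF21 and GDF15, none was called in gastrocnemius (1 at an unadjusted p under 0.05, against 16.4% of all genes), where Fgfr4 had -0.28. Klb, the co-receptor through which FGF21 signals, was at 4.91, 5.40 and 4.70 in KO diaphragm and at 4.53, 4.61 and 4.51 on the arrays labelled WT diaphragm (0.46, adjusted p = 0.024). Its highest array was again replicate 2, without which it was not called (0.26), nor was it without replicate 1 (0.45) or 3 (0.43) of the arrays labelled WT diaphragm. The arrays labelled WT diaphragm and replicates 1 and 3 of KO diaphragm lay below the 5.21 given above, and Klb signal over background was not tested. Klb is also a gene of fat cells, whose markers were higher on the KO diaphragm arrays, and their part in the Klb values was not tested.

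Markers of other cell types and fibers also differed in KO diaphragm. In KO diaphragm against the arrays labelled WT diaphragm, 10 of 10 mesothelial, 10 of 11 macrophage, 5 of 5 B cell and 6 of 7 white adipocyte markers were higher, as were 9 of 9 oxidative fiber genes. By contrast, 10 of 12 hindlimb position genes and 8 of 9 glycolytic fiber genes were lower, and of 8 skeletal muscle markers 1 was higher and 4 lower. Over all genes 16.3% were called higher and 11.2% lower in this comparison. The mean signal of the mesothelial list was 7.44 to 8.22 in KO diaphragm and 5.15 to 5.51 elsewhere, that of the macrophage list 7.78 to 8.34 and 6.53 to 7.18, that of the B cell list 5.42 to 6.19 and 4.33 to 4.70, and that of the glycolytic list 11.2 to 11.4 and 13.1 to 13.2. None of the markers in these lists was called by limma in gastrocnemius (0 to 3 per list at an unadjusted p under 0.05). The part of these cells and fibers in the differences of Asns, Psat1, Atf4 and Fgf21 was not tested, and in bulk RNA fewer cells of a type and less RNA per cell cannot be told apart.

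Immediate-early genes and genes that glucocorticoids induce were read beside these lists. Of 14 immediate-early genes 5 were called higher in KO gastrocnemius, where 0.406% of all genes were. Among the 5 were Fos (2.21), called under all 21 alternatives, Egr1 (1.49) and Dusp1 (1.17). The Egr1 call was lost without replicate 2 or 3 of WT or replicate 1 or 2 of KO gastrocnemius (1.36 to 1.44) and with a trended, robust eBayes, and the Dusp1 call without any single gastrocnemius array (1.07 to 1.22). Of the 14 genes 7 were higher and 2 lower in KO diaphragm against the label, where 16.3% and 11.2% of all genes were. Of 11 glucocorticoid response genes none was called in gastrocnemius, where Cebpd, the nearest to the threshold, was at 0.87 (adjusted p = 0.113), and 1 had an unadjusted p under 0.05. In KO diaphragm 2 were lower, Fkbp5 (-1.60) and Tsc22d3 (-1.32), and Ddit4, which the same hormones induce, was at -0.52 without being called (adjusted p = 0.173). Their part in the values of the stress response genes was not tested.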

How the data were processed

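Total RNA (100 ng per array) of 12 muscle samples was hybridized to mouse Gene 1.0 ST arrays. The deposited values are log2 signals, which the authors made with RMA in Affymetrix Expression Console (version not given in the sources used here), a method that corrects the background, equalizes the arrays by quantiles and gives 1 value per transcript cluster. No detection call was used, and the number of arrays limits the precision.

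Of 35556 probe sets, 21789 carry 1 symbol in the platform annotation, and the brightest per gene was kept. The 19938 genes were fitted in R 4.3.3 with limma 3.58.1 (lmFit, eBayes; 4 group means, 8 residual degrees of freedom, no covariate), with Benjamini-Hochberg adjustment over all genes in each of 5 comparisons and calls at an adjusted p under 0.05. The fit was tested on simulated data.

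The genes and lists were chosen with earlier results of these data known. Named genes were the members, Cox6a2, up to 3 called genes per pathway list and comparison with the largest difference (or the gene with the smallest p), and up to 2 markers per list. Some genes of the lists are not reported here. The plasma cell genes, and the fit without KO diaphragm replicates 2 and 3, were chosen after seeing the data. Replicate numbers are shared between groups, but nothing ties them to an animal or a day, and the deviations of samples with the same number correlated at -0.10 to 0.16, so the fit has no block. Motifs were searched with Python 3.11.15 in RefSeq promoter windows. Alternatives were eBayes with trend and robust, only the groups compared, the replicate block (fixed, or random with statmod 1.5.0), quantile normalization, median centring, the mean of a gene's probe sets, dropping genes under the median signal, no arrays labelled WT diaphragm, and leaving out each array.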

Additional observations from a re-analysis of the deposited data

Results flagged for a closer look

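The difference between KO and WT arrays was not the same for the diaphragm and the gastrocnemius label in the 20 genes below. The test was the interaction term of limma (diaphragm minus gastrocnemius, log2). The 20 are the called stress response genes and, per pathway list, up to 3 called genes with the largest interaction. Other genes named above, such as Nupr1 (0.89) and Hsp90b1 (0.98), were called as well. The interaction rests on the arrays labelled WT diaphragm, so that muscle and genotype cannot be told apart in it. Among the stress response genes it was 1.23 for Asns and 0.67 for Psat1. Among genes upstream of ATF4 it was -0.75 for Eif2s2, -0.74 for Eif2b2 and -0.56 for Eif2ak1, the heme-regulated eIF2 kinase. Among ATF4 targets it was -2.77 for Gpt2, -2.16 for Ddit4 and -1.38 for Chac1, and in serine and one-carbon metabolism 0.76 for Aldh1l1 and -0.65 for Psph. The chaperone and quality control genes had 1.46 for Creld2, 1.41 for Pdia4, 1.32 for Edem1 and 0.42 for the mitochondrial Hspa9, and the FGF21 co-receptor gene Klb had 0.68. Of the immediate-early genes Nr4a3 had -2.77 and Nr4a1 -1.61, and of the glucocorticoid response genes Tsc22d3 had -1.48, Fkbp5 -1.31 and Cebpd -1.29. Nr4a3 was also called higher by limma on the arrays labelled WT diaphragm than in WT gastrocnemius (2.44, adjusted p = 0.021). Its signals there were 9.54, 7.49 and 8.06 against 6.18, 6.19 and 5.38. Several of the interaction calls depended on the setting, with Hspa9 and Fkbp5 called under 10 of 20 alternatives each, Klb and Psat1 under 12 of 19, Cebpd under 15, Psph under 16, Eif2s2 under 18, and Pdia4 and Nr4a3 under 19 of 20. The markers of other cell types and fibers described above differed between the same arrays, and their part was not tested.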

How the results depend on the processing

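Counts of called stress response genes changed mostly with single arrays. With each array left out in turn, the 6 calls against the arrays labelled WT diaphragm ranged from 1 to 6, being 1 without replicate 1 of that label or replicate 2 of KO diaphragm and 3 without replicate 2 of that label or replicate 3 of KO diaphragm. The 2 interaction calls ranged from 1 to 3, and the 5 calls between the KO muscles from 3 to 5, being 3 without replicate 1 or 2 of KO diaphragm. None was called in gastrocnemius or between the WT labels under any alternative run. Without KO diaphragm replicates 2 and 3 the counts were 2, 1 and 3 (over all genes 1537 higher and 875 lower, 909 and 646, and 1724 and 1083), and with genes at or above the median signal, which leaves out Fgf21 and Psat1, the interaction had 1.

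The replicate block, fixed or random, changed among the 9 genes only the call of Mthfd2 between the KO muscles (fixed, adjusted p = 0.059), and left 6 calls against the WT diaphragm label and 2 interactions. Among the other named genes the fixed block lost the Hspa9 interaction (adjusted p = 0.051) and gained Dnajb9 in gastrocnemius (-0.52, adjusted p = 0.034) and Foxo1 between the WT labels (0.88, adjusted p = 0.014). Fitting only the groups compared lost Atf4 and Ddit3 against that label (adjusted p = 0.051 and 0.067). Median centring moved the median of all genes to -0.12 in diaphragm by label, -0.11 between the KO muscles and -0.13 in the interaction. In gastrocnemius the calls over all genes went from 81 higher and 37 lower to 188 and 29 after median centring, and to 24 and 8 without replicate 1 of KO gastrocnemius.

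Of the values that changed sign none was called. In gastrocnemius Ddit3 was 0.023 after median centring and -0.090 to 0.015 with an array left out, and Asns -0.25 to 0.042. Against the WT diaphragm label Phgdh was -0.021 after quantile normalization, -0.0061 without KO diaphragm replicates 2 and 3 and -0.12 to 0.26 with an array left out, Trib3 0.012 without those replicates, and Mthfd2 -0.17 to 0.033. The interaction of Atf5 was 0.018 without those replicates and -0.12 to 0.046 with an array left out, and that of Atf4 -0.20 to 0.0044. Between the KO muscles Atf5 was -0.063 after median centring, Trib3 -0.050 after median centring and -0.045 after quantile normalization, and Fgf21 0.0054 without those replicates and -0.046 to 0.068 with an array left out. Between the WT labels, with an array left out, Atf4 was -0.18 to 0.021, Mthfd2 -0.082 to 0.034, Trib3 -0.11 to 0.0084, Asns -0.25 to 0.048, Psat1 -0.21 to 0.015 and Ddit3 -0.019 to 0.077. The cause of these changes was not tested.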
